A study of Rattus norvegicus with 8 samples.

Results

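The genes of the mitochondrial respiratory chain were described in the thoracic aorta of Goto-Kakizaki (GK) rats, an inbred strain that develops diabetes without obesity, and of Wistar rats as controls. The members were chosen by name. Nuclear genes were those whose symbols begin with Nduf and a subunit letter and number, Sdh with a letter from a to d, Uqcr, Cox with a number from 4 to 8, or Atp5, and mitochondrial genes were those with an Mt- symbol on chromosome MT. The rule found 94 genes of 19238 in the gene table, 81 encoded in the nucleus and 13 on chromosome MT. Subunits under other symbols, or with no entry under these symbols, are not counted, so no complex is taken to be complete here. Complex I had 34 nuclear and 7 mitochondrial members, complex II had 4 nuclear members, complex III had 8 and 1, complex IV had 17 and 3, and complex V had 18 and 2. All rats were 7 to 8 weeks old, and each group had 4 libraries, numbered 7 to 10 in both groups, with 11760397 to 16266151 gene counts each. Strain and diabetes divided the libraries in the same way and cannot be told apart. The labels do not state whether each library is a different rat, so p-values here gauge only how much these libraries vary.

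The respiratory chain sits in the inner mitochondrial membrane. Complex I (NADH dehydrogenase) and complex II (succinate dehydrogenase) pass electrons to ubiquinone, complex III (the cytochrome bc1 complex) passes them to cytochrome c, and complex IV (cytochrome c oxidase) hands them to oxygen. Complexes I, III and IV pump protons as they do so, and complex V (ATP synthase) makes ATP as the protons flow back, except where an uncoupling protein such as Ucp1 of brown fat lets them through as heat. Complex II is encoded wholly in the nucleus, and the other complexes combine nuclear subunits with subunits translated inside the organelle. The symbol fixes the complex here, so a few members are placed by an older name: Ndufa4 is now known as a subunit of complex IV, Cox7a2l as a factor that joins complexes into supercomplexes, and Atp5s and Atp5sl as relatives of assembly factors.

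Most members had higher estimates in GK aorta, but none passed the test in the comparison with controls. Of the 77 nuclear members that passed the filter on low counts, 73 had a log2 fold change above 0 and 4 below, with a median of 0.45. Of the 13 mitochondrial members, 8 were above and 5 below 0, with a median of 0.54. The median of all 13673 genes tested was 0.00081, with 50.05% of them above 0. At an adjusted p under 0.05 in edgeR's quasi-likelihood test, 0 of 77 nuclear and 0 of 13 mitochondrial members were called, against 7.28% of all genes (542 higher and 453 lower). At an unadjusted p under 0.05 in the same test, 5 of 77 nuclear members were higher and 0 lower, against 1937 higher and 1838 lower of all 13673 genes. The share of nuclear members was thus smaller than that of all genes in both directions, and 0 of 13 mitochondrial members were on either side. DESeq2 called 1 member, Ndufs1, and 18.2% of all genes. The groups overlapped in CPM (counts scaled to a common library size) for every member tested, while 15.6% of all genes had groups that did not overlap. The 4 nuclear members that were not tested were the second loci of Ndufa13 on chromosome 7 and of Uqcr10 on chromosome 15, Atp5f1 and Atp5hl1, each with at most 1.21 CPM in any library.

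Medians were above 0 in all 5 complexes. They were 0.48 for complex I (40 genes tested), 0.61 for complex II (4), 0.56 for complex III (8), 0.38 for complex IV (20) and 0.28 for complex V (18). Among nuclear members alone the range was -0.02 to 1.24 in complex I, 0.49 to 0.84 in complex II, 0.14 to 0.93 in complex III, -1.30 to 3.51 in complex IV and -0.11 to 1.08 in complex V. Single libraries moved these values. The nuclear median was 0.23 without control 9, 0.69 without GK 9 and 0.76 without control 8, and the mitochondrial median was 0.24 without control 9 and 0.29 without GK 10. Over all 8 libraries left out in turn, the medians stayed between 0.24 and 0.73 for complex I, 0.36 and 0.91 for complex II, 0.32 and 0.82 for complex III, 0.13 and 0.77 for complex IV and 0.11 and 0.57 for complex V. Without GK 9, 5 nuclear members were called higher (Ndufs1, Ndufs3, Ndufs4, Sdhc and Uqcrfs1) and 1 lower (Cox6b2), but 22.1% of all genes were called in that fit (11.2% higher and 10.9% lower). Without control 7 Cox6a2 was called higher (4.07% of all genes called), and without control 8 Ndufv3-ps1 (4.24%). Under scaling by library totals alone, the median of all genes moved to -0.16 that of nuclear members to 0.30, and the number of nuclear members above 0 to 65 of 77; without control 9 it was 64 of 77.

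**Figure D1:**
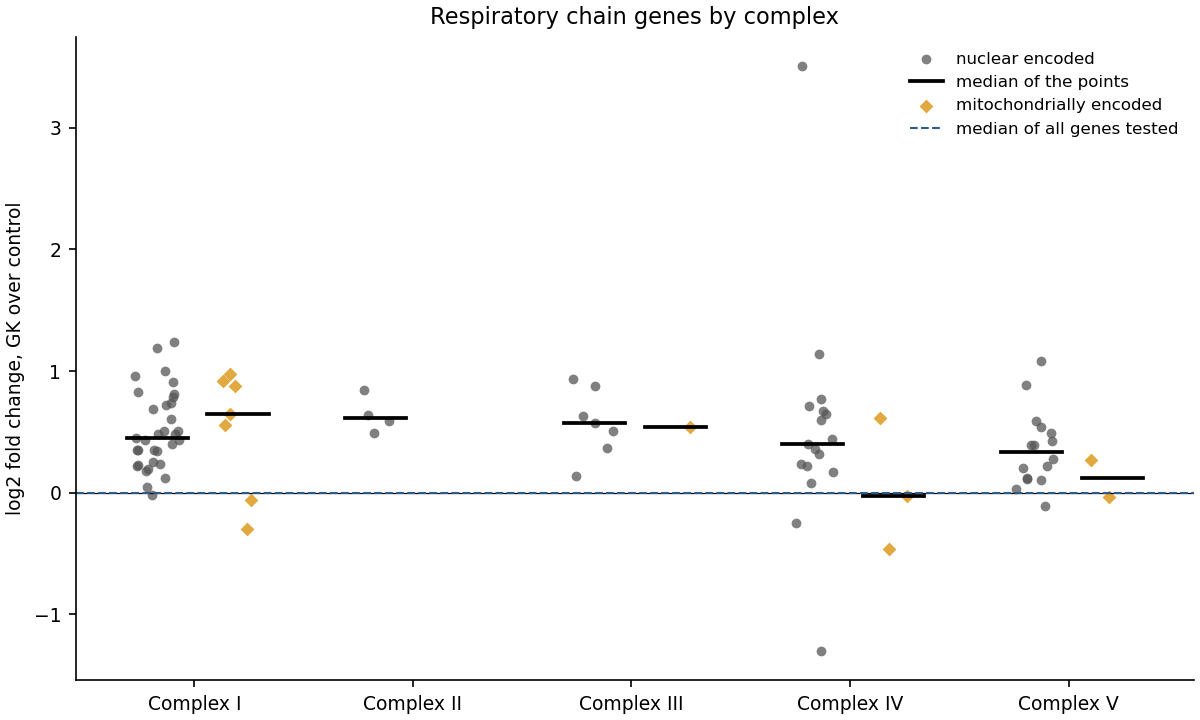
Log2 fold change, GK over control, of each tested respiratory chain gene (points), by complex; circles are nuclear and diamonds mitochondrial genes, black bars are medians, and the dashed line is the median of all genes. Nuclear medians lie above 0 in each complex, and Cox6a2 (3.51) and Cox6b2 (-1.30) stand far from the rest of complex IV.

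The nuclear members went up and down together from library to library. Their mean log2 CPM was 6.91, 6.91, 5.75 and 6.99 in GK 7 to 10 and 6.45, 6.82, 5.24 and 5.94 in controls 7 to 10. GK 9 was the lowest GK library for 71 of 77 nuclear and 13 of 13 mitochondrial members, and control 9 the lowest control for 73 of 77 and 13 of 13. The 81 nuclear genes took 2.27%, 2.46%, 1.19% and 2.34% of gene counts in GK aorta, against 1.71%, 1.97%, 0.779% and 1.27% in control aorta. Chromosome MT took 30.8%, 23.0%, 14.7% and 31.6% of gene counts in GK libraries and 26.8%, 27.4%, 8.27% and 17.99% in controls, or 25.0% ± 7.92 and 20.1% ± 9.003 (SD, n = 4 each). The 13 mitochondrial genes had 13.4, 9.25, 12.2 and 13.4 counts per count of the 81 nuclear genes in GK aorta and 15.4, 13.6, 10.3 and 13.9 in control aorta, so the balance of the genomes differed by less than the spread within either group.

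Marker genes of other cells moved with these levels, and their part in the result was not tested. The 10 brown adipocyte markers found summed to 7985, 7507, 2383 and 6905 CPM in GK 7 to 10 and 2677, 4211, 869 and 1670 CPM in controls 7 to 10, and none of them was at 0 in any library. Ranked within the controls, the libraries had the same order for this sum as for the nuclear respiratory mean (8, 7, 10, 9). Within GK the orders differed, with 7, 8, 10, 9 for the sum and 10, 8, 7, 9 for the mean, so GK 9 was the lowest for both. Summed general adipocyte markers were 31879, 25137, 14074 and 29558 CPM in GK 7 to 10 and 13832, 12968, 11306 and 8857 CPM in controls 7 to 10, so GK 9 was again the lowest GK library, but control 10 and not control 9 was the lowest control. Of 9 brown adipocyte markers tested, 2 were called higher and 0 lower, and of 13 general adipocyte markers 4 and 0, where 7.28% of all genes were called in either direction. Prdm16 and Lhx8 of the brown list had log2 fold changes of -0.24 and -0.52, neither of which passed. In the general list 11 markers were above 0 and 2 below. The 2 were Lep with -1.92 and Cfd with -0.06, neither of which passed. Ucp1 was present at 3518, 3700, 1101 and 2986 CPM in GK libraries and at 1088, 2069, 336 and 382 CPM in controls, and its log2 fold change of 1.55 ± 0.65 (SE) did not pass (adjusted p = 0.165 in edgeR). The 12 smooth muscle markers summed to 2806 to 8229 CPM in GK aorta and 5870 to 15602 CPM in control aorta, with 0 called higher and 3 lower, and fibroblast markers to 1586 to 5035 and 7318 to 14403 CPM, with 0 higher and 3 lower of 8. Endothelial markers had 3 of 9 called higher and 0 lower, and macrophage markers 0 of 8 higher and 1 lower. In bulk tissue, fewer cells of a type and less RNA per cell cannot be told apart.

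With the mean log2 CPM of the adipocyte markers as a covariate the direction turned: the nuclear median was -0.97 and the mitochondrial median -1.21, with 34 nuclear members and Mt-nd6 called lower and 0 higher. In that fit 3.55% of all genes were called lower and 5.54% higher. That score lay between 7.75 and 8.82 in GK libraries and between 7.09 and 7.97 in controls, so it differed between the groups as well as between libraries.

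**Figure D2:**
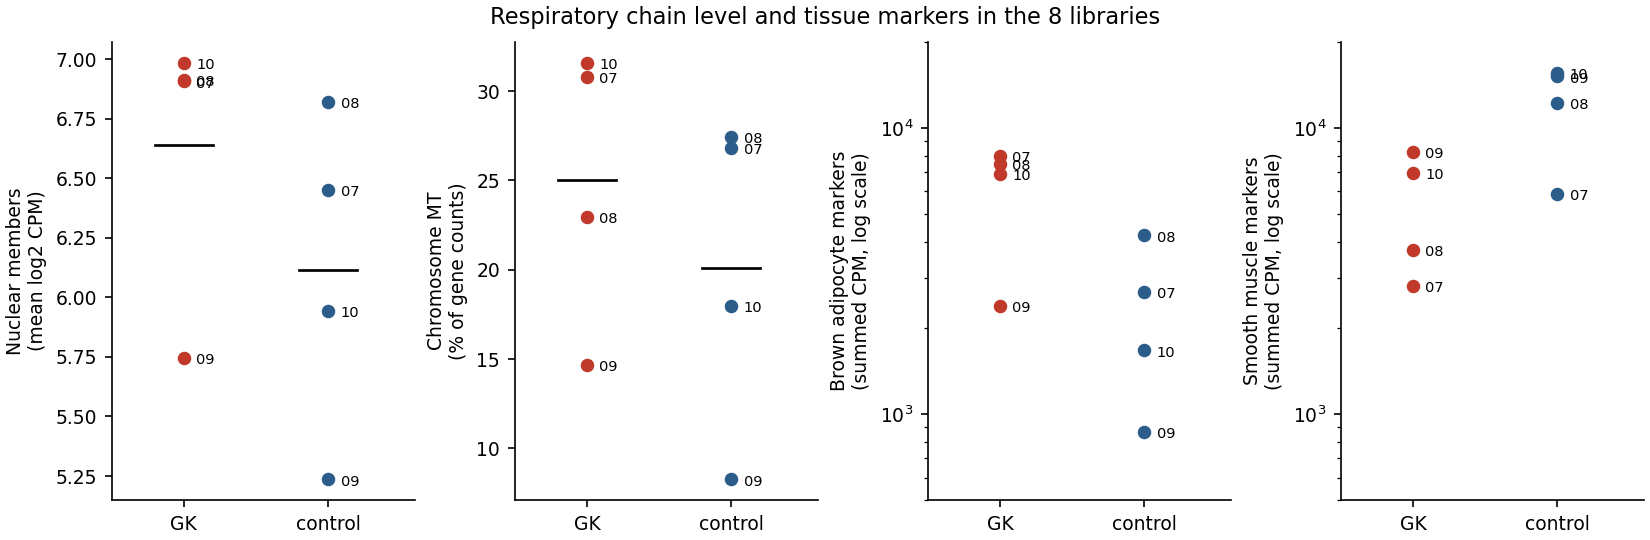
Values in the 8 libraries (points, with the library number beside each): mean log2 CPM of the 77 tested nuclear members, percent of gene counts on chromosome MT, and summed CPM of brown adipocyte and smooth muscle markers on log axes. Bars mark group means in the 2 panels on the left; libraries numbered 9 are the lowest of their group in the first 3 panels.

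The windows around the gene starts of the nuclear members were searched for short motifs of factors known to bind at respiratory genes. These are reference sequences, and a part of the motifs in the movement between libraries was not tested. RefSeq windows (GRCr8, 250 bases before to 50 after the start) matched 66 of 77 distinct nuclear symbols, and each motif was sought on both strands. CCGGAAG, the core bound by ETS factors such as GABPA, was in 19 of 66 windows (28.8%), against 9.22% of 27457 windows of all RefSeq genes. Those 27457 windows were not limited to genes tested here, nor matched to the members by expression level. AAGATGGCG, a YY1-type motif, was in 9 (13.6%, against 1.93%), GCGCATGC, part of the site of NRF1, was in 8 (12.1%, against 2.66%), and TCAAGGTCA, a site type of the estrogen-related receptors, was in 2 (3.03%, against 0.412%). None of these letters overlap between motifs in the windows printed. A match describes the letters and does not show that a factor binds. The windows of 4 members are printed with matches in capitals: Ndufs1 and Uqcrc1, which were higher in GK aorta relative to the mean of the members, Cox4i1, which was lower, and Cox8b, the heart and brown fat form of subunit 8, which has no match. Ndufs1 and Cox4i1 both hold the ETS core, and Uqcrc1 holds the NRF1 and YY1 types.
Ndufs1 (chr9:72073556-72073855, minus strand): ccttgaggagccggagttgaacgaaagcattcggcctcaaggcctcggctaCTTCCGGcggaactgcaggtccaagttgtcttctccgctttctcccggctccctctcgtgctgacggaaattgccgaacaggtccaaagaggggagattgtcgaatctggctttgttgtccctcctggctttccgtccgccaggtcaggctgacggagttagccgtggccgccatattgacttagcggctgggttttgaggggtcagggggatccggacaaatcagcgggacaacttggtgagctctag
Uqcrc1 (chr8:118467973-118468272, plus strand): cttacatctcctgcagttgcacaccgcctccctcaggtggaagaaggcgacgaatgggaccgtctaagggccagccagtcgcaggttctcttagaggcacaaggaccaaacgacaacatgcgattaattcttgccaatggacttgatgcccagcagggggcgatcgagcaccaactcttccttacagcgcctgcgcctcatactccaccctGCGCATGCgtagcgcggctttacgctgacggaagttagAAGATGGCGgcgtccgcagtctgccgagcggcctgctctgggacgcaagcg
Cox4i1 (chr19:65630133-65630432, plus strand): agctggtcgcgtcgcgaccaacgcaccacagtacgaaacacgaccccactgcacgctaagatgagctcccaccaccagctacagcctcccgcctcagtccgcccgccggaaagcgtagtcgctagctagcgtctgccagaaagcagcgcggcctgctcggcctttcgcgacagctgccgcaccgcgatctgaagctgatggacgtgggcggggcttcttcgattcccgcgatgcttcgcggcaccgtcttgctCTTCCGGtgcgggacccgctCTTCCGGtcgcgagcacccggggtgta
Cox8b (chr1:205408224-205408523, minus strand): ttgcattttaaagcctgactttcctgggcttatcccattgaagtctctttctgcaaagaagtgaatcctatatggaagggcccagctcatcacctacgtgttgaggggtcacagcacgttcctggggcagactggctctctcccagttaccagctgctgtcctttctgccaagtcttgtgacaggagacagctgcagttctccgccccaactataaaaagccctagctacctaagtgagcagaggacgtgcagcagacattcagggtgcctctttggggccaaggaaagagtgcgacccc

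Complex I takes electrons from NADH through a flavin and a chain of iron-sulfur clusters in its matrix arm. Ndufs1, the largest subunit of that arm, carried 994, 878, 302 and 936 CPM in GK libraries and 489, 399, 135 and 294 CPM in control libraries. The groups overlapped through GK 9. The log2 fold change was 1.24 ± 0.47 (SE), the highest of complex I, with an unadjusted p of 0.0276 and an adjusted p of 0.133 in edgeR; DESeq2 gave an adjusted p of 0.0428, and without GK 9 edgeR gave 0.0295. Ndufv1, the flavin-binding subunit that receives electrons from NADH, had 487, 491, 203 and 529 CPM in GK libraries and 355, 535, 120 and 240 CPM in controls. Control 8 had more Ndufv1 than any GK library, and the log2 fold change was 0.45 ± 0.46 (adjusted p = 0.552 in edgeR). The nuclear member of the complex with the highest level per length was Ndufb9, an accessory subunit of the membrane arm, at 378 in GK and 334 in control aorta on average in FPKM, a unit scaled by gene length and depth; its log2 fold change was 0.35.

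The nuclear core subunits, which carry the cofactors or line their path, had higher estimates than the accessory ones. All 7, Ndufs1 and Ndufv1 among them, had a log2 fold change of at least 0.45, with a median of 0.81, while the 26 accessory or other Nduf members tested had a median of 0.38. This division was drawn after the values were seen and was not tested. Ndufs4, an accessory subunit next to the NADH-oxidising module, had 164, 156, 62.6 and 144 CPM in GK libraries and 83.8, 94.4, 44.0 and 58.2 CPM in controls, with GK 9 inside the control range; it had the lowest adjusted p of all members (0.131 in edgeR, log2 fold change 0.91). The pseudogene-named Ndufv3-ps1 had 11.5, 10.5, 5.48 and 8.53 CPM in GK libraries and 3.52, 9.15, 1.21 and 2.05 CPM in controls, a log2 fold change of 1.19 ± 0.57. It can share reads with Ndufv3, whose log2 fold change was 0.96.

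Complex II oxidises succinate and is also an enzyme of the tricarboxylic acid cycle. Sdha, its flavoprotein and the member of the complex with the highest FPKM, had 1626, 1531, 566 and 1638 CPM in GK libraries and 1295, 1256, 378 and 876 CPM in controls. Sdhb, the iron-sulfur subunit, had 535, 513, 201 and 592 CPM in GK libraries and 373, 483, 116 and 254 CPM in controls. For both, 3 GK libraries lay above all controls and GK 9 lay below 3 of them. The log2 fold changes were 0.49 ± 0.46 for Sdha and 0.59 ± 0.47 for Sdhb, and the membrane anchors Sdhc and Sdhd had 0.84 and 0.64; the lowest adjusted p of the 4 was 0.192 in edgeR.

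Complex III moves electrons from ubiquinol to cytochrome c. Uqcrc1, a core protein on its matrix side, had 969, 913, 360 and 985 CPM in GK libraries and 515, 702, 155 and 380 CPM in controls, a log2 fold change of 0.88 ± 0.48. Uqcrfs1, the Rieske iron-sulfur protein, had 695, 664, 234 and 671 CPM in GK libraries and 396, 405, 136 and 249 CPM in controls, a log2 fold change of 0.93 ± 0.44, the highest of the complex (adjusted p = 0.204 in edgeR). In both genes the 3 GK libraries other than GK 9 lay above every control. Uqcrh, the hinge protein, had the highest FPKM of the nuclear members of the complex over all 8 libraries (420; 469 in GK and 370 in control aorta), with a log2 fold change of 0.51. All 7 nuclear members tested were above 0, and Uqcrq was the lowest with 0.14.

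Complex IV is the step that uses oxygen. Cox4i1, the ubiquitous form of subunit 4 and the nuclear member of the complex with the highest FPKM over all 8 libraries (819; 839 in GK and 799 in control aorta, where Cox6c had 825), had 745, 785, 308 and 847 CPM in GK libraries and 634, 940, 263 and 462 CPM in controls. Cox5a had 151, 166, 52.8 and 183 CPM in GK libraries and 102, 132, 33.05 and 69.1 CPM in controls. The log2 fold changes were 0.22 ± 0.43 for Cox4i1 and 0.72 ± 0.48 for Cox5a, neither of which passed. Cox7a2, a small subunit, was listed at 2 loci whose reads may be shared: on chromosome 8 its log2 fold change was 1.14 ± 0.48 (40.9, 39.9, 15.7 and 34.4 CPM in GK libraries, 15.6, 24.8, 4.42 and 14.6 CPM in controls), and on chromosome 14 it was 0.24 ± 0.50. Cox6b1 was also listed at 2 loci, with log2 fold changes of 0.67 on chromosome 1 and 0.60 on chromosome 2. Cox7a2l had 138, 142, 89.8 and 154 CPM in GK libraries and 164, 202, 119 and 137 CPM in controls; with -0.25 ± 0.22 it was 1 of only 2 nuclear members of this complex below 0, beside Cox6b2.

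Complex V had the member with the most nuclear counts. Atp5b, the catalytic beta subunit, had 6880, 5674, 2556 and 6534 CPM in GK libraries and 2895, 3982, 1177 and 2148 CPM in controls, and on average 2779 FPKM in GK and 1466 FPKM in control aorta, the highest of all nuclear members. The other 3 GK libraries were above every control, and GK 9 was inside the control range; the log2 fold change was 1.08 ± 0.46 (unadjusted p = 0.0446, adjusted p = 0.170 in edgeR). Atp5a1, the alpha subunit, had 2184, 2197, 815 and 2172 CPM in GK libraries and 1196, 1543, 443 and 808 CPM in controls, a log2 fold change of 0.89 ± 0.45. The isogenes of the membrane ring subunit c were nearer to 0: Atp5g2 was -0.11 ± 0.25, with 49.8, 64.0, 39.4 and 56.7 CPM in GK libraries and 49.3, 86.8, 44.2 and 46.4 CPM in controls, while Atp5g1 was 0.11 and Atp5g3 0.03. Atp5g1 and Atp5g3 did not have their lowest GK value in GK 9.

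The 13 mitochondrial genes are read into long transcripts of the mitochondrial genome that are then cut, and they encode core subunits only. Mt-co1, the catalytic subunit of complex IV, had 191753, 135047, 65338 and 197962 CPM in GK libraries and 118019, 154319, 32857 and 79495 CPM in controls, a log2 fold change of 0.62 ± 0.82. Mt-co2, which takes the electrons from cytochrome c, had 15036, 8923, 5986 and 17117 CPM in GK libraries and 22726, 24107, 5673 and 12479 CPM in controls, a log2 fold change of -0.47 ± 0.58. The groups overlapped for both, and so they did for the other 11 genes. Log2 fold changes were 0.97 for Mt-nd3, 0.92 for Mt-nd5, 0.87 for Mt-nd1, 0.64 for Mt-nd4l, 0.56 for Mt-nd2, 0.54 for Mt-cytb and 0.27 for Mt-atp6, and -0.03 for Mt-cox3, -0.03 for Mt-atp8, -0.06 for Mt-nd4 and -0.30 for Mt-nd6. The lowest adjusted p of the 13 was 0.224 in edgeR, for Mt-nd3.

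Within a library, however, the shares of some of the 13 genes in their summed counts differed between the groups. Mt-co2 made up 4.16%, 3.82%, 4.86% and 4.53% of the counts of the 13 genes in GK libraries and 8.77%, 8.26%, 8.72% and 7.71% in controls, or 4.34% ± 0.450 and 8.36% ± 0.494 (SD, n = 4 each), a ratio of 0.519. Its groups lay far apart; GK 9 was the highest GK library, still below every control, and control 9 lay within the range of the other controls. Mt-co2 counts per count of Mt-co1 were 0.0784, 0.0661, 0.0916 and 0.0865 in GK libraries and 0.193, 0.156, 0.173 and 0.157 in controls. Mt-cox3 (6.03% ± 0.512 in GK and 8.60% ± 0.353 in control aorta), Mt-nd4 (2.24% ± 0.290 and 3.27% ± 0.580), Mt-atp8 (0.878% ± 0.0978 and 1.29% ± 0.192) and Mt-nd6 (0.504% ± 0.0557 and 0.895% ± 0.161) were also lower in every GK library than in any control. Mt-nd1 (8.17% ± 0.445 and 6.36% ± 0.794) and Mt-nd5 (7.06% ± 0.613 and 5.36% ± 0.389) were higher in every GK library than in any control. The groups of the remaining 6 overlapped; Mt-nd3 was 0.171% ± 0.0276 in GK and 0.123% ± 0.0155 in control aorta, and Mt-co1 was 54.0% ± 2.52 and 49.5% ± 3.08.

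Shares of 1 total are tied to each other, and this scale was chosen after the values were seen, so no test was made. Measured against the library's mean log2 CPM of the 13 genes, the groups of 8 of 13 did not overlap (3 higher and 5 lower in GK aorta), while 2.06% of all genes had groups apart on that measure, a mean made of the 13 genes themselves. Mt-co2 and Mt-nd6 were also lower without overlap when set against the mean of the nuclear members. Mt-nd6 lies on the other strand than the other 12 and overlaps the end of Mt-nd5 in the files' coordinates (MT 13543 to 14061 and 11736 to 13565), as Mt-atp8 (7758 to 7961) does Mt-atp6 (7919 to 8599) and Mt-nd4l (9870 to 10166) does Mt-nd4 (10160 to 11537), so reads there can be split; Mt-co2 (7006 to 7689) overlaps none of them. Whether the counting used strand is not known from the sources at hand.

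**Figure D3:**
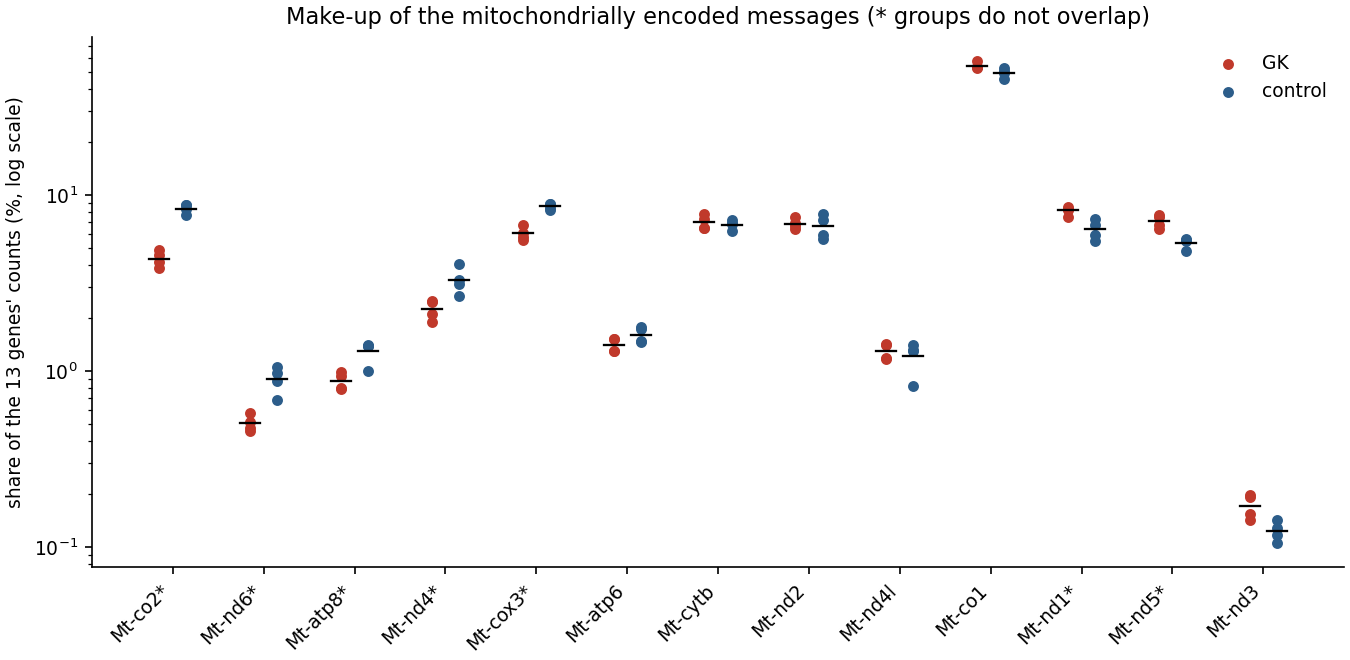
Share of the counts of the 13 mitochondrially encoded genes taken by each gene in each library (points, log axis; bars are means of 4 libraries), sorted by the ratio of GK to control; an asterisk marks genes whose groups do not overlap. Mt-co2 stands lowest in GK relative to control (4.34% and 8.36%), and Mt-nd1 and Mt-nd5 are higher in GK.

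The same was done for the nuclear members by setting each gene's log2 CPM (with 0.5 added) against the library's mean over the 77, which takes out the shared rise and fall between libraries. On this relative scale the groups of 14 of 77 (18.2%) did not overlap, 9 higher and 5 lower in GK aorta, against 4.50% of all genes; the mean is made of the members, and the scale was chosen after the values were seen. Among the higher genes were Ndufs1, Ndufs3, Ndufs7, Sdhc, Uqcrc1, Atp5a1, Atp5b and Cox7a2 on chromosome 8. The Cox7a2 locus on chromosome 14 had more counts in every library, and reads of the 2 loci may be shared. Its groups overlapped, with a difference of -0.25 between GK and control, against 0.72 on chromosome 8. Ndufs1 was 3.05, 2.87, 2.50 and 2.89 above the mean in GK libraries and 2.48, 1.82, 1.85 and 2.26 above it in controls, and Atp5b was 5.84, 5.56, 5.57 and 5.69 above it in GK and 5.05, 5.14, 4.97 and 5.13 in controls. The lower genes were Ndufb8, Ndufb11, Ndufc2, Cox4i1 and Cox7a2l. Cox4i1 was 2.64, 2.71, 2.52 and 2.74 above the mean in GK libraries and 2.86, 3.06, 2.80 and 2.91 in controls, and Ndufc2 was -0.23, -0.50, -0.57 and -0.08 in GK and 0.15, 0.10, 0.11 and 0.26 in controls. Ndufs1, Ndufs3 and Ndufs7 are core subunits of complex I, and Atp5a1 and Atp5b form the head of the ATP synthase, while Ndufb8, Ndufb11 and Ndufc2 are accessory subunits of the membrane arm. Other members did not follow this division. The core subunit Ndufv1 overlapped with a difference of 0.03, and the accessory subunits Ndufs4 (0.35) and Ndufv3 (0.48) overlapped with higher values in GK aorta.

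**Figure D4:**
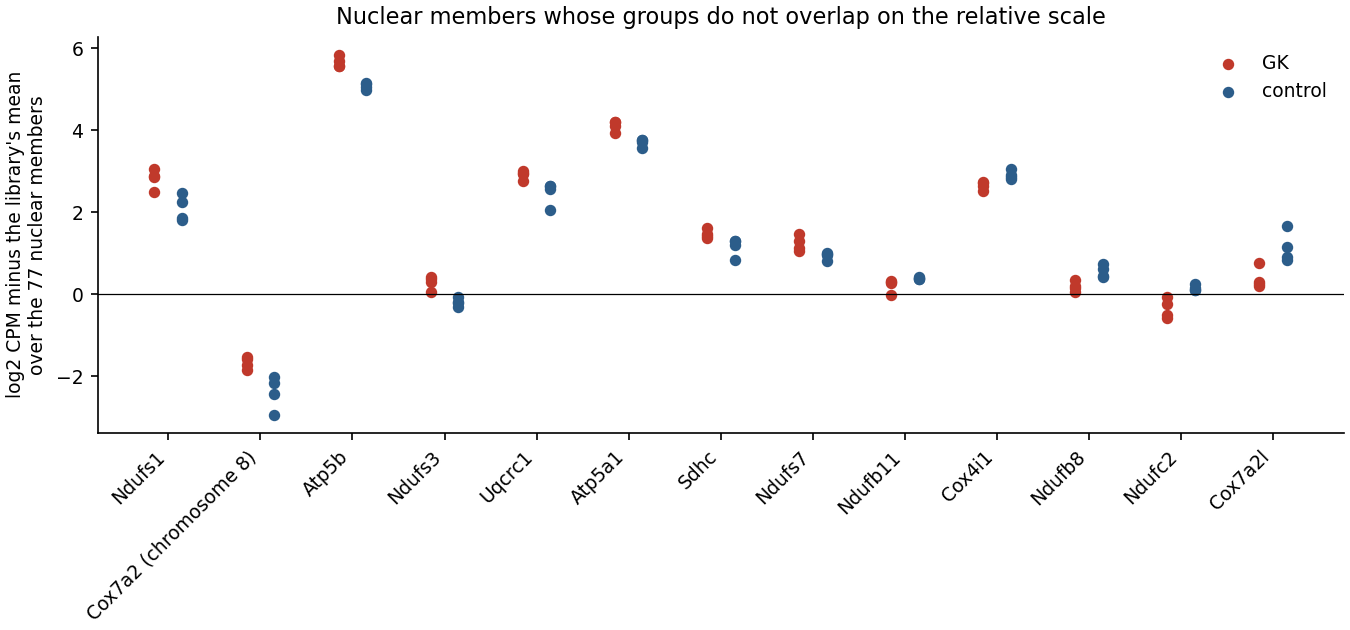
Nuclear members whose groups do not overlap on the relative scale (13 of 14 drawn), sorted by the difference GK minus control; each point is 1 library, and the y axis is log2 CPM minus that library's mean over the 77 nuclear members. The differences run from 0.72 for Ndufs1 to -0.77 for Cox7a2l.

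Some complex IV subunits and Ndufa4 have a second gene that is used in particular tissues, and the ratio of that gene to its ubiquitous partner was compared within each library, which needs no scaling between libraries. None of 5 pairs passed the exact permutation test (two-sided, smallest possible p 0.0286, adjusted over the 5 pairs). A pair that reached the smallest p alone would still not pass after the adjustment. The test therefore could not decide on a single pair, and no absence of a shift follows from it. Cox7a1 over Cox7a2 was not analysed here. Cox6a2, the form of heart and skeletal muscle, had 12.3, 24.6, 39.9 and 1.21 CPM in GK libraries and 6.46, 0.370, 0 and 0 CPM in controls, from 619 counts in GK 9 to 0 counts in controls 9 and 10, where 3 counts would be the limit. Its log2 ratio to Cox6a1 averaged -4.44 ± 2.90 in GK and -9.59 ± 3.14 in control aorta (SD, n = 4 each), a difference of 5.15 (exact p = 0.0571, adjusted p = 0.286). In edgeR its log2 fold change of 3.51 ± 1.46 was the highest of all members (adjusted p = 0.163; 7.45 and 0.0482 without control 7).

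The libraries with Cox6a2 were those with genes of striated muscle, and the part of these in the result was not tested. Myh6, the myosin of the atria, had 526, 1073, 3.94 and 0.302 CPM in GK libraries and 317, 0.647, 0 and 0.273 CPM in controls, so it marked GK 7, GK 8 and control 7. Skeletal muscle markers summed to 17314 CPM in GK 9 and to at most 49.1 CPM in the other 7 libraries. The cardiomyocyte markers found, 9 of 10, summed to 62.9 to 2356 CPM in GK libraries and 127 to 667 CPM in controls, and 0 of 4 tested markers of either list was called; Myl7 was at 0 in GK 9 and controls 8 to 10, and Tnnt2 in GK 10 and control 8. GK 9, which had the most Cox6a2, was also the GK library with the lowest values for most other members.

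Cox8b, the counterpart of Cox8a in heart and brown fat, had 104, 146, 36.6 and 131 CPM in GK libraries and 63.1, 148, 10.9 and 45.04 CPM in controls. Its log2 ratio to Cox8a was -1.30 ± 0.35 in GK and -1.86 ± 0.79 in control aorta, a difference of 0.56 (exact p = 0.229, adjusted p = 0.381; 0.21 without control 9). Cox8b ranked the controls as the brown adipocyte markers did (8, 7, 10, 9), but so did Cox8a (199, 302, 83.3 and 159 CPM in controls 7 to 10) and Cox4i1. In GK aorta the order was 8, 10, 7, 9 for Cox8b and 7, 8, 10, 9 for the brown adipocyte markers. Whether Cox8b followed these markers was not tested. Cox6b2, best known from testis, was near the limit of detection at 0.438, 0.0686, 1.42 and 0.0755 CPM in GK libraries and 0.881, 0.555, 1.88 and 1.71 CPM in controls, and its log2 ratio to both Cox6b1 loci together differed by -2.62 (exact p = 0.114, adjusted p = 0.286). The lung and hypoxia-linked form Cox4i2 had 5.04, 4.67, 3.87 and 3.32 CPM in GK libraries and 2.50, 6.38, 2.75 and 3.41 CPM in controls, with a ratio to Cox4i1 that differed by -0.02 (exact p = 0.886). Ndufa4l2, a hypoxia-induced relative of Ndufa4, had 3.09 to 4.38 CPM in GK libraries and 2.88 to 4.98 CPM in controls, with a ratio that differed by -0.23 (exact p = 0.657).

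**Figure D5:**
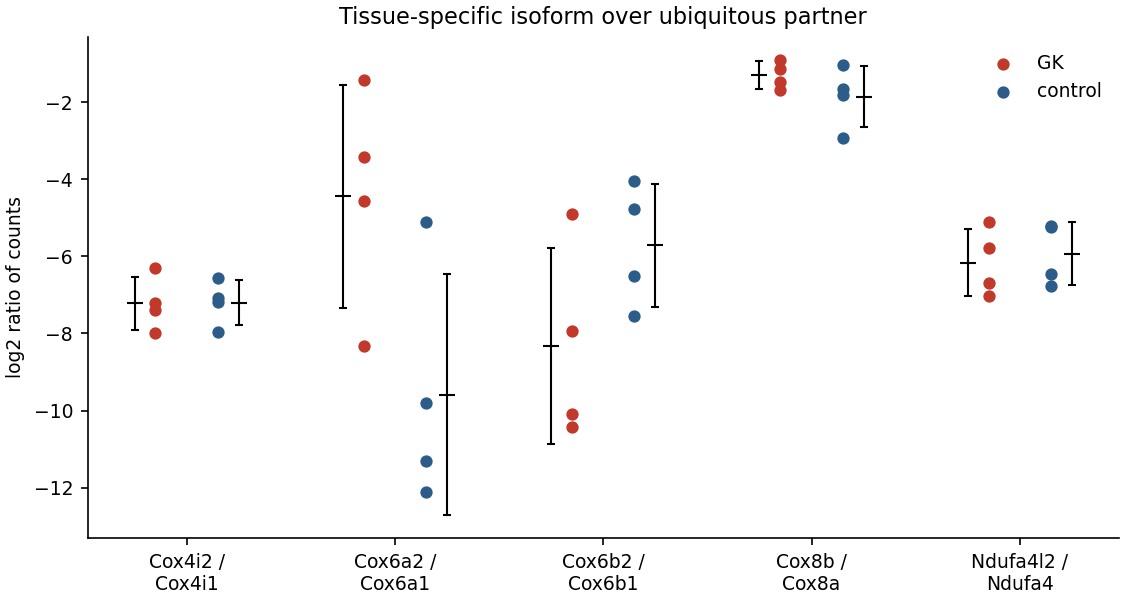
Log2 ratio of the counts of a tissue-specific gene to those of its ubiquitous partner in each library (points), with the mean and SD of 4 libraries beside them. The ratio of Cox6a2 spans -1.43 to -8.32 in GK and -5.11 to -12.1 in control aorta, and the groups overlap in each pair.

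Genes that build, feed and regulate the chain had 9 calls among 215 tested (4.19%, against 7.28% of all genes), and each was higher in GK aorta. Of 43 assembly factors tested 3 were called higher and 0 lower, with a list median of 0.47: Ttc19, needed for complex III, with a log2 fold change of 1.105 ± 0.183, Atpaf1, a chaperone of the ATP synthase beta subunit, with 0.95 ± 0.19, and Ndufaf5, needed for complex I, with 0.85 ± 0.21. Ttc19 had 31.3, 30.5, 23.3 and 33.4 CPM in GK libraries and 14.4, 16.1, 10.1 and 14.6 CPM in controls, which did not overlap. Of 23 genes of cytochrome c, ubiquinone synthesis and ATP export 1 was called higher and 0 lower (median 0.66). This was Adck4, also named Coq8b and needed for ubiquinone synthesis, with 20.7, 21.6, 19.5 and 23.0 CPM in GK libraries and 11.7, 10.7, 11.7 and 13.5 CPM in controls (log2 fold change 0.83 ± 0.13, adjusted p = 0.0125 in edgeR). Its GK 9 value lay close to the other GK libraries. Cycs, cytochrome c itself, had a log2 fold change of 0.92 ± 0.53 that did not pass.

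Of 19 genes of mitochondrial RNA processing and stability 2 were called higher and 0 lower (median 0.36). They were Fastkd2 (1.27 ± 0.20), which binds mitochondrial 16S rRNA, with 36.6, 31.4, 19.7 and 29.8 CPM in GK libraries and 11.01, 13.6, 10.99 and 13.2 CPM in controls, and Fastkd5 (1.14 ± 0.21), which is listed as AABR07053741.1 and is needed for maturation of mitochondrial messages without flanking transfer RNAs. Of 70 mitochondrial ribosomal proteins 3 were called higher and 0 lower (median 0.46): Mrps2 (1.19), Mrps11 (0.95) and Mrps27 (0.74). No gene was called in either direction among 17 biogenesis regulators (median 0.31), 18 genes of mitochondrial DNA maintenance and transcription (0.16), 19 of the tricarboxylic acid cycle (0.69) and 6 of uncoupling (0.34). Ppargc1a, the coactivator that drives mitochondrial biogenesis, had 128, 98.6, 25.6 and 115 CPM in GK libraries and 46.8, 50.4, 15.2 and 23.95 CPM in controls (log2 fold change 1.43 ± 0.53, adjusted p = 0.129 in edgeR). Log2 fold changes that did not pass were 0.40 for Ppargc1b, -0.01 for Ppara, 0.32 for Tfam, the packaging protein of mitochondrial DNA, 0.11 for Ssbp1, 0.16 for Polg, 1.48 for Idh3a and 1.05 for Ucp3. Leaving out single libraries ended calls: all 9 without GK 8 (adjusted p 0.0513 to 0.144), 8 without control 10, 7 without GK 7, 6 without GK 10, 5 each without control 7 and control 9, 2 without control 8 and 0 without GK 9. Calls over all genes moved too: 1.3% without GK 8, 0.974% without control 10 and 22.1% without GK 9, against 7.28% with every library. With the adipocyte markers as a covariate 8 of the 9 calls ended, and Adck4 had an adjusted p of 0.0383. Under library totals 4 ended (Adck4 among them), without a filter 3, and with chromosome MT left out of the scaling 2.

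The authors' deposited prediction paired 2 long non-coding RNAs with members, both in cis. By its name, that list holds transcripts picked because they differed between GK and control in these same libraries. A call of either transcript here is therefore no independent support. NONRATT000969.2 (739 bases, chromosome 1), paired with Ndufc2, had 4, 1, 1 and 0 counts in GK libraries and 11, 8, 10 and 17 counts in controls, a log2 fold change of -2.79 ± 0.59 (adjusted p = 0.0454 in edgeR, where 2.74% of 11683 transcripts were called). The call ended without a filter on low counts (adjusted p = 0.115) and when any single library other than GK 7 was left out (0.0783 to 0.158). Ndufc2, a subunit of the membrane arm of complex I, had 102, 84.8, 35.7 and 120 CPM in GK libraries and 96.3, 121, 40.3 and 73.2 CPM in controls, a log2 fold change of 0.05 ± 0.41. NONRATT024782.2 (766 bases, chromosome 6) is paired with Cox7a2l. Its span (6696340 to 6709774) lies inside that of Cox7a2l (6695827 to 6709783), so reads may be shared. This transcript did not pass the filter, and it had 22, 19, 3 and 21 counts in GK libraries and 3, 1, 4 and 6 counts in controls. With no filter its log2 fold change was 2.35 (adjusted p = 0.171 in edgeR); without GK 9 it passed the filter and was called (2.68, adjusted p = 0.0123).

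In the authors' deposited table, which calls a gene at a q-value under 0.05 and at least a 2-fold change, 0 members were called. The members with the lowest q-values in the authors' deposited table were Ndufs1 (0.0533), Cox6a2 (0.0752) and Atp5b (0.0785). The KEGG pathway of oxidative phosphorylation had 5 called genes of 138 in the authors' deposited table (p = 1), none of them a member: LOC684509, Atp4a, Atp6v1b2 and Atp6v1g2 were listed as up and Atp6v1e2 as down, and those with an Atp6v symbol are subunits of the vacuolar proton pump.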

How the data were processed

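Gene-level and long non-coding RNA counts of 8 aorta libraries were used as the authors deposited them, whole numbers of reads per feature. The authors also deposited FPKM values (scaled by gene length and depth), p-values and q-values and log2 fold changes, per the file headers; the FPKM values served to compare levels between genes and as an alternative for the share of chromosome MT and for isoform ratios. Bowtie 0.12.2 is named in the submitters' processing notes without a role. The rat genome build and the strand setting are not given in the sources used here. Groups follow the titles; the source name, which is GK for controls too, was not used.

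CPM (counts per 1e6) divide each count by the library total times its TMM factor (0.826 to 1.24). Genes passing filterByExpr were tested with edgeR 4.0.16 in R 4.3.3 (quasi-likelihood, group only, 4 libraries against 4), with Benjamini-Hochberg adjustment over all genes tested and a threshold of 0.05. The SE of a fold change is its size over the root of the F statistic. Isoform pairs were compared as log2 count ratios with 0.5 added, by exact permutation (scipy 1.17.1). Code was tested on simulated data. Alternatives were DESeq2 1.42.0, other scalings, no filter, an adipocyte covariate, a replicate block, and each library left out.

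Members and the 16 gene lists (293 of 310 listed genes found, 11 by synonym) were chosen with earlier results of these data known. Named with values were mitochondrial members, isoform pairs, core subunits, the 5 highest and 5 lowest fold changes, the highest FPKM per complex, and up to 3 called genes of each list; other named genes, among them Ndufs4, Ndufc2, Atp5g1, Atp5g3 and those of the relative scale, were chosen after their values were seen. Some genes that were tested and counted are not reported here by name.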

Additional observations from a re-analysis of the deposited data

Results flagged for a closer look

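In each group of 4 libraries the highest or lowest value was set against its nearest neighbour, and 29 values stood far from the other 3 by Dixon's test of the gap over the range; chance flags about 1 in 20 groups, and 272 groups were examined. Of these, 23 were in GK 9. There the mean of the nuclear members was 5.75 on the log2 CPM scale and their share of gene counts was 1.19%, both low. The single genes that stood low in GK 9, in CPM, were for complex I Ndufa13 on chromosome 16 (16.3), Ndufb11 (52.6), Ndufb6 (18.7), Ndufb7 (22.9), Ndufs1 (302), Ndufs3 (55.6), Ndufv1 (203) and Ndufv3 (175). For complexes II and III they were Sdha (566), Sdhd (155), Uqcrb (12.1), Uqcrc1 (360), Uqcrfs1 (234) and Uqcrh (116). For complexes IV and V they were Cox7b (87.8), Atp5a1 (815), Atp5c1 (154), Atp5o (109) and Atp5sl (23.1), and outside the chain Ppara (82.5) and Ucp3 (83.5).

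In control 7 Cox6a2 was high (6.46 CPM). In control 8 Atp5g2 (86.8 CPM) and Atp5sl (50.5 CPM) were high, while the shares of the 13 mitochondrial genes taken by Mt-nd5 (4.78%) and Mt-atp8 (1.003%) were low. In GK 8 the share of Mt-co1 was high (57.8%).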

How the results depend on the processing

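The count of genes called was 995, against 2489 by DESeq2, 2534 without both libraries numbered 9, 473 under library totals, 654 without a filter and 135 (without control 10) to 3046 (without GK 9) with single libraries left out. Nuclear members called higher were 0, against 1 by DESeq2, 9 of 76 without both libraries numbered 9 and 0 to 5 with single libraries left out. Of all genes, 10.1% were called higher by DESeq2, 9.74% without both libraries numbered 9 and 11.2% without GK 9. Nuclear members called lower were 0 to 1 with single libraries left out. With single libraries left out the nuclear median was 0.23 to 0.76 and the mitochondrial median 0.24 to 0.81. Libraries share only a number across groups: same-numbered libraries correlated with r = 0.438, 0.114, 0.560 and 0.00065, and GK 8 and GK 10 each correlated best with another number. With a replicate block 2372 genes and 16 of 77 nuclear members (all higher) were called, while 17.3% of all genes were called in either direction and 9.66% higher. The nuclear and mitochondrial medians were then 0.49 and 0.63, and NONRATT000969.2 lost its call (adjusted p = 0.105 in edgeR). As a share of summed FPKM, chromosome MT had 39.9% in GK and 33.9% in control aorta; gene length enters that unit.

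With the adipocyte score as a covariate, 34 nuclear members and 1 mitochondrial member were called lower, and the cause was not tested. The medians turned to -0.97 (nuclear), -1.21 (mitochondrial), -0.93 (complex I), -0.95 (II), -1.08 (III), -1.10 (IV) and -0.90 (V). Mitochondrial log2 fold changes turned to -0.65 (Mt-nd1), -1.08 (Mt-nd2), -0.45 (Mt-nd3), -0.71 (Mt-nd4l), -0.56 (Mt-nd5), -1.21 (Mt-cytb), -0.99 (Mt-co1) and -1.21 (Mt-atp6). Nuclear ones turned to -1.27 (Ndufa4), 0.073 (Ndufa4l2), -1.53 (Ndufb9), -0.43 (Ndufs1), -1.06 (Ndufv1), -0.17 (Ndufv3-ps1), -1.07 (Sdha), -1.01 (Sdhb), -0.68 (Uqcrc1), -0.65 (Uqcrfs1), -1.07 (Uqcrh), -1.26 (Cox4i1), -0.28 (Cox4i2), -1.03 (Cox5a), -1.36 (Cox6a1), -1.07 and -1.05 (Cox6b1, chromosomes 1 and 2), 0.75 (Cox6b2), -1.61 and -0.32 (Cox7a2, chromosomes 14 and 8), -1.01 (Cox8a), -1.42 (Cox8b), -0.64 (Atp5a1) and -0.35 (Atp5b). Other genes turned to -1.09 (Cycs), -1.17 (Ppargc1b), -0.72 (Ppargc1a), -1.14 (Ssbp1), -0.12 (Polg), -0.31 (Tfam), -0.57 (Idh3a), -0.35 (Ucp1) and -0.015 (Ucp3). Ucp1 is itself among the markers averaged in the score, so part of its turn is built in.

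Of all 77 nuclear members, 65 were above 0 under library totals and 64 (without control 9) to 74 (without control 8) with single libraries left out, against 73, so members not named also turned. Among the genes named by the stated rule, Ssbp1 turned to -0.078 under library totals, Ppara to 0.0018 without a filter, and under the replicate block Mt-nd4 to 0.038, Mt-cox3 to 0.065, Mt-atp8 to 0.028, Ndufa4l2 to 0.0041 and Ppara to 0.13. With single libraries left out the ranges of named genes and ratios that crossed 0 were -0.35 to 0.30 (Mt-nd4), -0.32 to 0.25 (Mt-cox3), -0.30 to 0.24 (Mt-atp8), -0.028 to 0.52 (Mt-atp6), -0.046 to 0.49 (Ndufa4), -0.13 to 0.18 (Ndufa4l2), -0.015 to 0.57 (Cox4i1), -0.030 to 0.59 (Cox7a2, chromosome 14), -0.22 to 0.17 (Atp5g2), -0.30 to 0.33 (Ppara), -0.085 to 0.38 (Ssbp1), -0.32 to 0.24 (ratio of Cox4i2 to Cox4i1) and -0.58 to 0.062 (ratio of Ndufa4l2 to Ndufa4). Low counts limit Cox6a2 in controls, Cox6b2 and both long non-coding RNAs.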

Other observations

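The 24 other genes of chromosome MT took 0.345%, 0.259%, 0.189% and 0.363% of gene counts in GK libraries and 0.592%, 0.587%, 0.221% and 0.303% in controls, and the groups overlapped. Across the 77 nuclear members, which are not independent of each other and share libraries and depth, Spearman's rho between log2 fold change and mean log2 CPM was 0.39, and between log2 fold change and gene length 0.22. Over all 13673 genes tested the same values were 0.12 and 0.01.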
